A study of Mus musculus with 18 samples.

Results

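Loaded and unloaded forms of an engineered vesicle were compared in B16F10 tumors. The comparison set tumors injected once with exoCDN2, extracellular vesicles (EVs) loaded with the cyclic dinucleotide CDN2, against B16F10 tumors injected once with unloaded EVs. The tumors were taken by their labels alone, and 4 of the 18 tumors sequenced belong to the comparison, 2 in each arm. The question it addresses is what the dinucleotide adds to the vesicle that carries it.

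B16F10 is a mouse melanoma cell line, grown here under the skin of female C57BL/6 mice, and each agent was injected into the tumor. The exoCDN2 arm received 0.1 µg of CDN2 in vesicles, the other arm received vesicles without cargo, and all 4 tumors were collected 24 h after their single dose. Per the study's methods the vesicles came from HEK293, a human embryonic kidney cell line, engineered to overexpress PTGFRN, a glycoprotein of the vesicle surface, so both arms share the kind of vesicle, the tumor line, the route and the time. Whether the arms received the same number of vesicles is not given in the labels, so a difference in vesicle number cannot be told apart from the cargo. Tumors given 1 dose of PBS (n = 2) and tumors given 1 dose of 20 µg of free CDN2 (n = 2), collected at the same time, are set beside them. The labels number the tumors of each group 1 and 2 without naming the animals, so every p-value below rests on a spread between tumors. That spread was estimated over 16 tumors. They include groups given 1 dose of 100 µg of free CDN2, or 2 doses of PBS, of 0.1 µg in exoCDN2 or of 20 µg of free CDN2. A whole-tumor library cannot tell fewer cells of a type from less RNA per cell.

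CDN2 is an agonist of STING, a protein of the endoplasmic reticulum that is activated by cyclic dinucleotides. Inside a cell, the sensor cGAS makes such a dinucleotide when DNA appears in the cytosol. STING then recruits the kinase TBK1, which activates the transcription factor IRF3, and it also activates NF-kB. IRF3 switches on the interferon beta gene, and the secreted interferon acts through its receptor on transcription factors that include STAT2 and IRF9 and bind interferon-stimulated response elements (ISREs) in the promoters of a large set of genes. In tumors, macrophages, dendritic cells and endothelium are known responders to STING agonists.

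The 4 libraries held 38671428 to 48465555 estimated counts, within the 21608895 to 65983630 of the 16 tumors fitted together. Tyrp1 and Dct, enzymes of melanin synthesis that mark the melanocyte lineage, served to check the tissue, in CPM (counts scaled to library size). Tyrp1 lay at 8025 and 7229 CPM after unloaded EVs and 8166 and 7179 CPM after exoCDN2, and Dct at 6996 and 6643 CPM after unloaded EVs and 6818 and 6710 CPM after exoCDN2, so the arms overlapped. Tissue around the tumor differed between libraries: 20 keratinocyte markers summed to 147 and 3.79 CPM in unloaded EV tumors 1 and 2 and to 8.36 and 5.09 CPM in exoCDN2 tumors 1 and 2. Summed over 22 skeletal muscle markers, unloaded EV tumors 1 and 2 held 286 and 21.9 CPM and exoCDN2 tumors 1 and 2 held 955 and 309 CPM. Values below are CPM after scaling by TMM factors and are given in the order tumor 1, tumor 2.

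The promoters of 4 higher genes are printed, picked because they hold the core of an element through which interferons act. They belong to the first 4 of the higher genes, ordered by p, whose 300 bases from 250 before to 50 after the start site hold the core of an ISRE, the letters GAAANNGAAA on either strand. The sequences are from RefSeq (GRCm38.p6), printed on the strand of the gene, and the matches are in capitals. Trim21, a ubiquitin ligase and cytosolic antibody receptor, lies at chr7:102565433-102565732 on the minus strand and holds 2 overlapping matches, the first beginning 13 bases past the start. Isg15, the ubiquitin-like modifier, lies at chr4:156200769-156201068 on the minus strand, with 3 overlapping matches from 78 bases before the start. Mitd1, which acts in the last step of cell division, lies at chr1:37890362-37890661 on the minus strand with 1 match, and Ddx58, which encodes the RNA sensor RIG-I, at chr4:40239776-40240075 on the minus strand with 1 match on the opposite strand.
Trim21: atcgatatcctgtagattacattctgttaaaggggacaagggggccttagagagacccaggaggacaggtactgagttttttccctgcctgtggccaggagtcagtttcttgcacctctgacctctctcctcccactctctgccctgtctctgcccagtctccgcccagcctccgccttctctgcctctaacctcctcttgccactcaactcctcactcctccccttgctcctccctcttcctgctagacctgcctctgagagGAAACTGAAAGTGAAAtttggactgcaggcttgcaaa
Isg15: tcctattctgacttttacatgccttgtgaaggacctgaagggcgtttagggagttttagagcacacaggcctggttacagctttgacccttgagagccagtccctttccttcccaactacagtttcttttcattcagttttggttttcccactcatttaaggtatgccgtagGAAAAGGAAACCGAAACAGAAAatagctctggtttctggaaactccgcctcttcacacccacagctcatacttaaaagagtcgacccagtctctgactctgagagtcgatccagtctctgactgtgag
Mitd1: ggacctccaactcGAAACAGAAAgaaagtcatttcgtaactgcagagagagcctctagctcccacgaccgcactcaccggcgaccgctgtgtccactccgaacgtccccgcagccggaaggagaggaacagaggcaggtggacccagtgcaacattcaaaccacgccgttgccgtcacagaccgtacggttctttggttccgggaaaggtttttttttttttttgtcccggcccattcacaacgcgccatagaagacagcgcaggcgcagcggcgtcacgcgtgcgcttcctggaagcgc
Ddx58: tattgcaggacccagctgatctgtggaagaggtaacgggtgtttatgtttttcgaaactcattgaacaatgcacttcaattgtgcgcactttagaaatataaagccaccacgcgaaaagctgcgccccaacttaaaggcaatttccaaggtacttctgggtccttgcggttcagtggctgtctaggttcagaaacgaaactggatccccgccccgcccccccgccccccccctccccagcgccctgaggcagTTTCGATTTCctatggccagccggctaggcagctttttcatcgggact
The same letters stand in 1131 of 32851 mouse promoters of this length, or 3.44%. The letters GGGNNTTTCC, a kB site, stand in 1.63% of them. Of the 427 higher genes 315 (73.8%) had a promoter in the table, too few for a share among them. The 4 printed genes do not stand for all leading genes. Dtx3l, Oasl2, Cmpk2, Trim25, Irf9 and Zc3hav1 had a smaller p than Ddx58 and promoters without a match. A match is a description of the letters and not of a bound site.

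With 0.1 µg of CDN2 in the vesicle many transcripts changed, most of them upward. Of 16927 genes tested, 427 were higher (2.52%) and 72 lower (0.425%) in exoCDN2 than in unloaded EV tumors, together 499 (2.95%), where a change means a Benjamini-Hochberg adjusted p under 0.05 in edgeR's quasi-likelihood test and a ratio over 2. In all 499 the 2 exoCDN2 tumors lay on the same side of both unloaded EV tumors. Because the genes were called on these same tumors, that separation adds no support. Ratios exceeded 4 in 270 of the higher genes, 8 in 122, 16 in 43 and 32 in 19, and the median log2 fold change of the higher genes was 2.35. Among the lower genes 18 fell by more than 4-fold and their median was -1.55, against -0.04 over all genes tested. The higher genes took 0.773% and 0.824% of all counts in the unloaded EV tumors and 4.51% and 4.99% in the exoCDN2 tumors. Without unloaded EV tumor 2 the count was 223 (216 higher, 7 lower), and without exoCDN2 tumor 2, exoCDN2 tumor 1 and unloaded EV tumor 1 it was 266, 293 and 364.

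**Figure D1:**
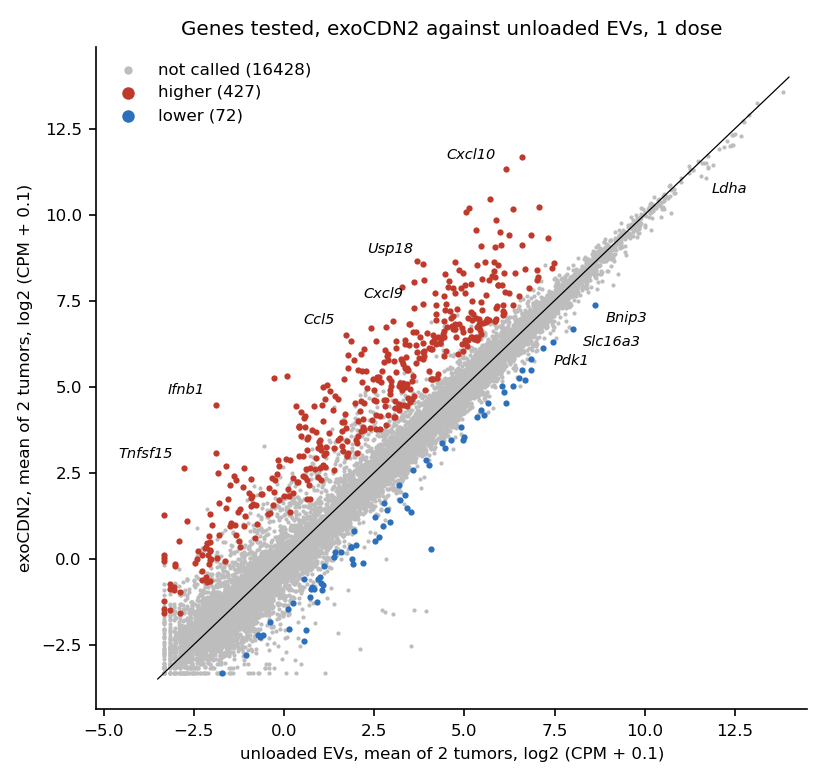
Mean of the 2 exoCDN2 tumors (vertical axis) against mean of the 2 unloaded EV tumors (horizontal axis), both as log2 of CPM plus 0.1, for the 16927 genes tested, 1 point a gene, with the 427 higher genes in red, the 72 lower in blue and a line where both means are equal. Ifnb1, Cxcl10, Usp18 and Ccl5 lie far above the line, and Pdk1, Slc16a3 and Bnip3 lie just below it.

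The ligands themselves came on from almost nothing. Ifnb1, which encodes interferon beta (chr4:88522025-88522774), lay at 0.262 and 0.0757 CPM in the unloaded EV tumors and at 24.1 and 20.1 CPM in the exoCDN2 tumors, a log2 fold change of 6.97 ± 1.13 (SE, adjusted p = 0.00572). Both PBS tumors were as low as the unloaded EV tumors, at 0.133 and 0.120 CPM. Ifna2 and Ifna4, members of the interferon alpha family, had no count in either unloaded EV tumor and passed the test. After exoCDN2 Ifna2 lay at 2.22 and 2.37 CPM, at least 32.5-fold higher when set against a floor of 3 counts per library (adjusted p = 0.012), and Ifna4 at 0.980 and 0.976 CPM, at least 13.9-fold higher (adjusted p = 0.0184). Ifna5 was also without a count after unloaded EVs and lay at 0.740 and 0.999 CPM after exoCDN2, but missed the threshold (adjusted p = 0.051). The alpha genes are near-identical copies among which shared reads can be divided, so a single copy is less certain. Over 21 interferon genes, Ifnb1 and Ifng among them, CPM summed to 0.393 and 0.479 in the unloaded EV and 34.5 and 34.8 in the exoCDN2 tumors. Ifnb1 gave most of the exoCDN2 sums, so they do not measure the alpha genes. Ifng, the interferon of T and NK cells (chr10:118441046-118445892), lay at 0.131 and 0.328 CPM after unloaded EVs and 4.54 and 8.18 CPM after exoCDN2, a log2 fold change of 4.80 ± 1.02 (adjusted p = 0.022). Its PBS tumors, at 0.949 and 1.56 CPM, lay between the arms. Of the 21 interferon genes 9 passed the filter on low counts and 4 were called, but a gene silent in 1 arm passes only through the other, so that count carries no weight. Ifnb1 lost its call without unloaded EV tumor 2, Ifna2 without either unloaded EV tumor, Ifna4 without any 1 of the 4 tumors, and Ifng without exoCDN2 tumor 2 or either unloaded EV tumor.

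Of the pathway that reads the cargo, several sensors of nucleic acid rose and the STING gene missed the threshold. Tmem173, the gene of STING, lay at 44.9 and 51.5 CPM after unloaded EVs and 64.8 and 80.8 CPM after exoCDN2, groups that did not overlap and a difference that missed the threshold (log2 fold change 0.59 ± 0.16, adjusted p = 0.0621). Ikbke, the second kinase of the pathway, lay at 18.1 and 19.8 CPM after unloaded EVs and 19.98 and 21.8 CPM after exoCDN2 (log2 fold change 0.14, adjusted p = 0.715). Cgas rose from 12 and 8.98 to 44.9 and 43.6 CPM (log2 fold change 2.08 ± 0.25, adjusted p = 0.000441). Trex1, the exonuclease that clears cytosolic DNA, rose from 6.46 and 5.25 to 40.8 and 37.4 CPM (log2 fold change 2.74 ± 0.42, adjusted p = 0.00315). Zbp1, a sensor of Z-form nucleic acid, rose by 2.21 on the log2 scale, Samhd1, which degrades deoxynucleotides, by 1.92, and Trim56, a ubiquitin ligase of the pathway, by 1.73. Of 17 pathway genes tested 9 rose and none fell, with a median log2 fold change of 1.72, and 7, 5, 4 and 5 of them were called without exoCDN2 tumor 1, exoCDN2 tumor 2, unloaded EV tumor 1 and unloaded EV tumor 2. Trex1 lost its call without unloaded EV tumor 2, and Zbp1 without exoCDN2 tumor 2 or unloaded EV tumor 1.

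Downstream of the receptor, the transcription factors rose while most receptor and kinase genes did not pass the test. Stat2 rose from 23.5 and 21.4 to 168 and 168 CPM (log2 fold change 2.90 ± 0.20, adjusted p = 9.24e-06) and Irf9, its partner, from 30.6 and 31.7 to 95.03 and 98.6 CPM (log2 fold change 1.64 ± 0.11, adjusted p = 9.24e-06). Irf1, the factor induced by both interferon types, rose from 46.1 and 71.6 to 845 and 1010 CPM (log2 fold change 3.98 ± 0.32, adjusted p = 2.3e-05), and Irf7, which drives the alpha genes, from 18.5 and 18.6 to 133 and 146 CPM (log2 fold change 2.91 ± 0.27, adjusted p = 7.71e-05). Irf8, a factor of myeloid cells, lay at 10.8 and 31.2 CPM after unloaded EVs and 52.7 and 79.8 CPM after exoCDN2 without passing (adjusted p = 0.123). Inhibitors of the receptor rose as well. Usp18, which removes ISG15 from proteins and blocks the type I receptor (chr6:121245906-121270917), had the smallest p of all genes and rose from 17.5 and 11.2 to 353 and 412 CPM, a log2 fold change of 4.73 ± 0.24 (adjusted p = 1.29e-06), and Socs1, an inhibitor of the JAK kinases, rose from 4.19 and 3.36 to 48.2 and 62.1 CPM. Over the receptor and JAK-STAT list 7 of 20 rose, with a median of 0.36, and without exoCDN2 tumor 1, exoCDN2 tumor 2, unloaded EV tumor 1 and unloaded EV tumor 2 the count was 4, 4, 3 and 4. The interferon regulatory factor list had 7 of 12 higher and a median of 1.67. Neither list held a lower gene.

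Most of the antiviral effectors rose. Rsad2, which encodes viperin, rose from 141 and 53.4 to 3128 and 3437 CPM (log2 fold change 5.08 ± 0.42, adjusted p = 2.8e-05), and its neighbour Cmpk2, a nucleotide kinase, from 43.1 and 22.8 to 925 and 1245 CPM (log2 fold change 5.04 ± 0.31, adjusted p = 4.15e-06). Ifit1 and Ifit3, which bind foreign RNA, rose from 55.9 and 14.46 to 1187 and 1133 CPM and from 70.1 and 35.00 to 1364 and 1419 CPM. Mx1, a gene of the Mx GTPase family, rose from 14.49 and 4.79 to 227 and 249 CPM (log2 fold change 4.62 ± 0.48). In each of these genes unloaded EV tumor 1 lay above tumor 2, and both exoCDN2 tumors lay above both. Oasl2, of the oligoadenylate synthetase family, rose from 16.8 and 19.7 to 197 and 224 CPM (adjusted p = 2.34e-06). Of 26 IFIT, OAS, Mx and IFITM genes tested 22 rose, with a median log2 fold change of 3.36, and 20 to 22 were called with any 1 of the 4 tumors left out. Bst2, which tethers virions to the cell, was an exception at 81.8 and 147 CPM after unloaded EVs and 170.2 and 214 CPM after exoCDN2 (adjusted p = 0.164). Reads can be divided among the close copies of the Ifit and Oas families, so their single members are less certain than the count.

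Isg15 rose from 25.6 and 18.8 to 308 and 309 CPM (log2 fold change 3.80 ± 0.26, adjusted p = 9.24e-06), and all 6 genes of its conjugation list, which includes the ligase gene Trim25 (60.9 and 48.5 to 292 and 299 CPM), rose. Among the PARP, TRIM and Schlafen genes 33 of 42 rose and none fell, with a median of 2.44. Dtx3l, a ubiquitin ligase that works with PARP9, rose from 31.5 and 30.5 to 292 and 343 CPM (log2 fold change 3.36 ± 0.17, adjusted p = 1.29e-06), and Trim21 from 15.3 and 13.6 to 161 and 178 CPM (log2 fold change 3.55 ± 0.19, adjusted p = 1.93e-06). Mitd1, whose promoter is printed above for its match, rose from 19.7 and 18.7 to 83.8 and 91.05 CPM (log2 fold change 2.19 ± 0.15). The sensors of viral RNA rose with them: Ddx58 from 42.2 and 39.03 to 363 and 377 CPM (log2 fold change 3.19 ± 0.22, adjusted p = 9.24e-06) and Ifih1, which encodes MDA5, from 28.1 and 24.7 to 417 and 379 CPM (log2 fold change 3.91 ± 0.31). Of the 24 RNA and bacterial pattern receptors and adaptors tested 10 rose, among them Tlr2 and Tlr3, with a list median of 1.24, and 7 or 8 were called with 1 tumor left out. Nod2 and Nlrp3, sensors of bacterial products and of damage, lost their calls without any 1 of the 4 tumors, and Nod1 without exoCDN2 tumor 2 or unloaded EV tumor 1.

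Most interferon-inducible GTPases rose too. Gbp2, a guanylate-binding protein, lay at 47.7 and 102 CPM after unloaded EVs, 604 and 744 CPM after exoCDN2 and 218 and 285 CPM after PBS, so the PBS tumors lay between the arms. Irgm1, an immunity-related GTPase, had the same order, at 104 and 163 CPM after unloaded EVs, 339 and 389.6 CPM after PBS and 1104 and 1298 CPM after exoCDN2. Gbp5, which takes part in inflammasome activation, rose from 13.3 and 10.6 to 248 and 277 CPM (log2 fold change 4.45 ± 0.40, adjusted p = 5.38e-05). Of 25 GBP and IRG genes tested 21 rose over unloaded EVs, with a median log2 fold change of 2.94, and 21, 16, 14 and 17 were called without exoCDN2 tumor 1, exoCDN2 tumor 2, unloaded EV tumor 1 and unloaded EV tumor 2. The only negative difference among the 25 was -3.11 on the log2 scale, which was not called, though DESeq2 called 1 member lower. Over the same 25 genes the median difference of exoCDN2 from PBS was 1.34 and that of unloaded EVs from PBS was -1.64. No gene was called between unloaded EVs and PBS in edgeR (0% of genes called, 540 at an unadjusted p under 0.05), DESeq2 called 36, and exoCDN2 against PBS gave 444 changed genes (2.62%). These comparisons share tumors and are given as values only.

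**Figure D2:**
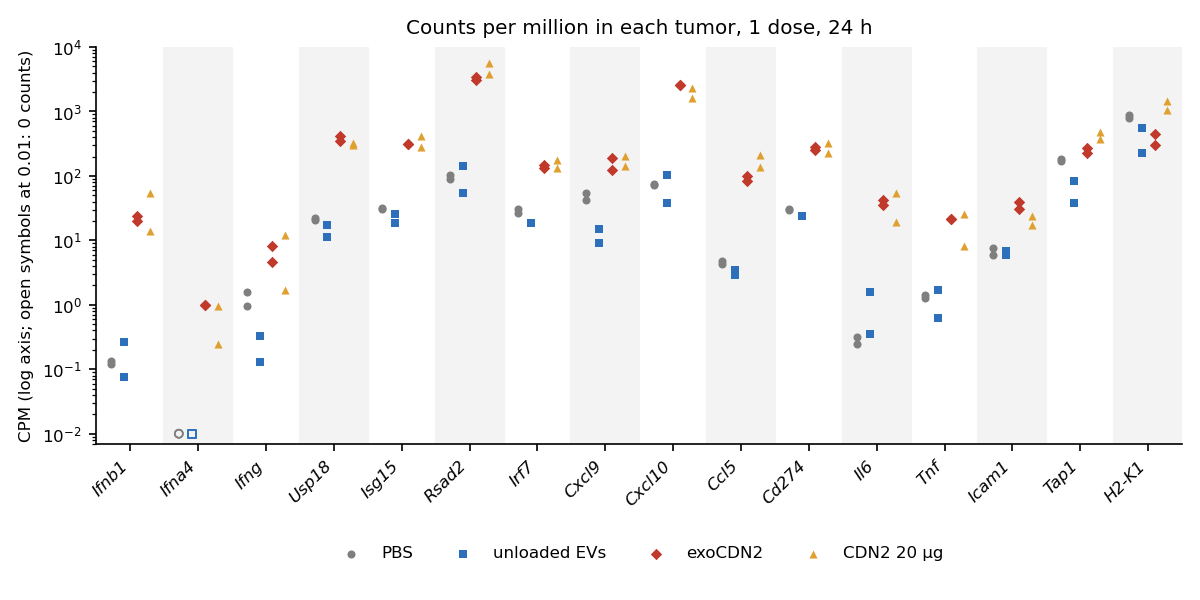
CPM on a log axis in each of the 2 tumors given PBS, unloaded EVs, exoCDN2 or 20 µg of CDN2, 1 point a tumor, for 16 genes side by side, where open symbols at the foot mark tumors without a count. For Ifnb1 and Usp18 both exoCDN2 points lie far above both unloaded EV points, whereas for H2-K1 the 2 arms overlap.

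Transcripts of the CXCR3 ligands, a family that draws activated T cells and NK cells, rose together. Cxcl10 (chr5:92346638-92348889) rose from 103 and 38.5 to 2584 and 2532 CPM, a log2 fold change of 5.17 ± 0.44 (adjusted p = 3.25e-05). Cxcl11 rose from 1.05 and 0.404 to 34.95 and 40.8 CPM (log2 fold change 5.68 ± 0.57). It is annotated as a polymorphic pseudogene, so its transcript need not give a working chemokine. Cxcl9 rose from 9.14 and 14.99 to 122 and 190.2 CPM (log2 fold change 3.69 ± 0.41, adjusted p = 0.000247). Cxcl9 again had its PBS tumors between the arms, at 42.3 and 53.4 CPM, and in all 3 ligands the exoCDN2 tumors lay above all 4 others. Cxcr3, their receptor, lay at 6.70 and 5.40 CPM after unloaded EVs and 2.96 and 3.95 CPM after exoCDN2 (log2 fold change -0.81, adjusted p = 0.315). All 3 ligands were called with any 1 of the 4 tumors left out.

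Among the CC chemokines Ccl5, another T cell attractant, led. It rose from 2.90 and 3.43 to 98.1 and 84.3 CPM (log2 fold change 4.85 ± 0.39, adjusted p = 2.24e-05). Ccl2, which recruits monocytes, rose from 24.5 and 18.9 to 133 and 105 CPM (log2 fold change 2.46 ± 0.44, adjusted p = 0.00835), and Ccl3 and Ccl4, attractants of monocytes and lymphocytes, from 2.79 and 1.21 to 36.1 and 27.8 and from 7.53 and 1.51 to 74.03 and 63.6 CPM (adjusted p = 0.0158 and 0.0308). Ccr7, the receptor that guides dendritic cells to lymph nodes, rose from 2.44 and 4.09 to 10.4 and 10.9 CPM (adjusted p = 0.0439). Ccr2, the receptor for Ccl2, lay at 7.31 and 20.4 CPM after unloaded EVs and 4.88 and 3.23 CPM after exoCDN2 (adjusted p = 0.0789). In all 7 of 29 CC chemokine and receptor genes rose, none fell, and the list median was -0.15, against -0.04 over all genes tested and 0.40 for the list without unloaded EV tumor 2. The calls of this list thinned to 3, 5, 4 and 1 without exoCDN2 tumor 1, exoCDN2 tumor 2, unloaded EV tumor 1 and unloaded EV tumor 2. Ccl5 was called each time, Ccr7 never, Ccl2 not without exoCDN2 tumor 1 or unloaded EV tumor 2, Ccl3 in addition not without unloaded EV tumor 1, and Ccl4 not without either exoCDN2 tumor or unloaded EV tumor 2.

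Cxcl1, a neutrophil attractant, was the one CXCR2 ligand called, at 1.55 and 0.908 CPM after unloaded EVs and 13.6 and 14.8 CPM after exoCDN2 (log2 fold change 3.52 ± 0.87, adjusted p = 0.0478), and its call was lost without any 1 of the 4 tumors. Its PBS tumors were lower still, at 0.110 and 0.120 CPM. Neutrophil markers summed to 16.6 and 14.6 CPM after unloaded EVs and 82.01 and 51.6 CPM after exoCDN2. Of 14 tested 13 had positive differences and none was called in the main fit. S100a8, a subunit of calprotectin, was at 2.87 (adjusted p = 0.119) and Csf3r, the G-CSF receptor, at 2.06 (adjusted p = 0.0673). The count depended on the fit: DESeq2 called 3 of the 14 higher, and edgeR on the groups given 1 dose called 7 of 10 tested.

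Genes of the NF-kB arm and several cytokines also rose. Tnf lay at 1.68 and 0.631 CPM after unloaded EVs and 21.4 and 21.5 CPM after exoCDN2 (log2 fold change 4.20 ± 0.62, adjusted p = 0.00228). Il6 lay at 1.57 and 0.353 CPM after unloaded EVs and 42.5 and 35.9 CPM after exoCDN2 (log2 fold change 5.32 ± 0.99, adjusted p = 0.0101), and Il1b at 4.58 and 2.09 CPM after unloaded EVs and 55.6 and 37.3 CPM after exoCDN2 (log2 fold change 3.79, adjusted p = 0.016). Il27, a subunit of a cytokine that acts on T cells, rose from 0.218 and 0.126 to 7.88 and 8.80 CPM, and Tnfsf10, which encodes the death ligand TRAIL, from 4.12 and 2.52 to 54.3 and 67.7 CPM. The inhibitors that end the signal rose as well: Nfkbie from 14.2 and 9.29 to 97.6 and 96.5 CPM (adjusted p = 0.000179) and Tnfaip3, which encodes A20, from 10.3 and 9.79 to 78.97 and 72.1 CPM (adjusted p = 0.0014). Nfkbia, the best-known inhibitor, lay at 28.7 and 26.1 CPM after unloaded EVs and 135 and 135 CPM after exoCDN2, groups far apart, yet missed the threshold in the fit over all groups (log2 fold change 2.30, adjusted p = 0.0818). Icam1, an adhesion molecule for leukocytes, rose from 6.87 and 5.85 to 39.1 and 30.6 CPM. In total 13 of 25 NF-kB genes rose (median 2.30) and 9 of 24 cytokines (median 2.25), with none lower. Without exoCDN2 tumor 1, exoCDN2 tumor 2, unloaded EV tumor 1 and unloaded EV tumor 2 6, 10, 11 and 5 NF-kB genes were called, and 4, 5, 4 and 2 cytokines. Tnf, Tnfsf10, Nfkbie and Tnfaip3 were called each time, Il6 was lost without unloaded EV tumor 2, Il27 without either unloaded EV tumor, and Il1b and Icam1 without exoCDN2 tumor 1 or either unloaded EV tumor.

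Lists of cell death, sterol, coagulation, matrix protease and stress genes gave few risers in the main fit. Of 31 inflammasome, pyroptosis and apoptosis genes 5 rose, led by Ripk1, the kinase at the fork between survival and necroptosis (1.10 on the log2 scale), Casp4, the receptor of cytosolic lipopolysaccharide (2.66), and Cflar, an inhibitor of caspase 8 (1.36). Ripk2, the kinase below NOD receptors, rose by 2.93. Ch25h, which makes the antiviral sterol 25-hydroxycholesterol, was the one called gene of 24 on the sterol list (2.18 and 1.31 to 11.9 and 13.3 CPM). Fgl2, a prothrombinase, was the only one of 18 coagulation genes (21.97 and 27.8 to 146 and 110.3 CPM), Mmp13, a collagenase, of 16 matrix protease genes (6.35 and 2.22 to 23.6 and 24.4 CPM), and Atf3, a stress-induced repressor, of 20 stress genes (11.3 and 17.5 to 71.3 and 82.8 CPM). Single calls such as these, 4.2% to 6.3% of a list, lie near the 2.52% higher over all genes tested and say little about the lists. The coagulation count depended on the fit, with 5 of 18 higher in DESeq2 and 7 in edgeR on the groups given 1 dose. Of the 31 cell death genes 8 were higher in each of these fits. Cflar and Fgl2 were not called without either unloaded EV tumor, Atf3 without unloaded EV tumor 1, Ch25h without unloaded EV tumor 2 and Mmp13 without that tumor or either exoCDN2 tumor, and 2 to 4 of the cell death genes were called with 1 tumor left out. No complement gene of 21 and no proliferation gene of 34 was called, and Mki67, the proliferation antigen, lay at 285 and 188 CPM after unloaded EVs and 366 and 333 CPM after exoCDN2.

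Antigen presentation split within its own list. Tap1, the peptide transporter, rose from 37.7 and 83.4 to 223 and 271 CPM (log2 fold change 2.03 ± 0.34, adjusted p = 0.00594), and Tapbp, which encodes tapasin, from 72.4 and 98.4 to 299 and 328 CPM (log2 fold change 1.88 ± 0.24). Nlrc5, the transactivator of class I genes, rose from 18.1 and 35.96 to 75.3 and 97.1 CPM (adjusted p = 0.0237). The class I chains differed among themselves. H2-Q4, a non-classical chain, rose from 49.8 and 83.9 to 136 and 156 CPM (log2 fold change 1.13 ± 0.26, adjusted p = 0.0363), and H2-K2, annotated as a pseudogene, from 0.655 and 0.429 to 3.42 and 3.79 CPM. The classical chain gene H2-K1 lay at 227 and 551 CPM after unloaded EVs and at 304 and 443 CPM after exoCDN2, with both exoCDN2 tumors inside the range of the unloaded EV tumors (log2 fold change -0.06 ± 0.36, adjusted p = 0.976). B2m, the light chain, overlapped in the same way at 474 and 888 CPM after unloaded EVs and 629.6 and 880.0 CPM after exoCDN2, and so did Psmb9, a subunit of the immunoproteasome, at 12.4 and 56.6 CPM after unloaded EVs and 27.3 and 42.4 CPM after exoCDN2. For these 3 genes both PBS tumors stood above all 4 vesicle tumors, at 805 and 879.9 CPM of H2-K1, 1205 and 1328 CPM of B2m and 90.6 and 102 CPM of Psmb9, while free CDN2 gave 1040 and 1429 CPM of H2-K1. In total 5 of 28 class I genes rose and none fell, and 3, 2, 2 and 5 were called without exoCDN2 tumor 1, exoCDN2 tumor 2, unloaded EV tumor 1 and unloaded EV tumor 2. The median difference was 0.40 against unloaded EVs and -0.11 against PBS, and that of unloaded EVs against PBS was -0.94. Against unloaded EVs it was 0.14 without unloaded EV tumor 1 and 1.28 without unloaded EV tumor 2. Of 12 class II genes none was called, with a median of -0.39 that turned to 0.81 without unloaded EV tumor 2 and H2-Ab1 at 24.4 and 95.2 CPM after unloaded EVs and 38.8 and 47.8 CPM after exoCDN2. Unloaded EV tumor 1 held the lowest and tumor 2 the highest level of H2-Ab1 and Psmb9 in the 4 tumors, and the sign of the difference of H2-K1, B2m, Psmb9 and H2-Ab1 depended on which of the 4 tumors was left out. Nlrc5 and H2-Q4 were not called without unloaded EV tumor 1 or either exoCDN2 tumor. Reads of class I chains can be divided among close copies.

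Of the genes of molecules that restrain T cells, the ligand genes Cd274 and Lgals9 rose and no receptor gene passed in the main fit. Cd274, which encodes PD-L1, rose from 23.8 and 23.5 to 254 and 283 CPM (log2 fold change 3.50 ± 0.47, adjusted p = 0.00108) and stayed called with any 1 of the 4 tumors left out. Lgals9, which encodes galectin 9, rose from 67.6 and 84.2 to 194 and 225 CPM. They were the only genes called of 12 checkpoint ligands in the main fit, while DESeq2 called 4. Ido1, which degrades tryptophan, lay at 0.0218 and 0 CPM after unloaded EVs and 0.220 and 0.372 CPM after exoCDN2 and was not called (adjusted p = 0.178). None of 16 checkpoint receptors and none of 14 cytotoxic granule genes was called in the main fit, and DESeq2 called 1 of each higher. Beside the 2.95% called over all genes tested, such counts in lists this short say little about these genes. Gzmb, granzyme B, lay at 1.92 and 3.33 CPM after unloaded EVs and 7.96 and 10.4 CPM after exoCDN2 (log2 fold change 1.81 ± 0.49, adjusted p = 0.0731), and Prf1, perforin, at 0.633 and 1.82 CPM after unloaded EVs and 1.16 and 1.51 CPM after exoCDN2. Cd8a lay at 0.524 and 1.36 CPM after unloaded EVs and 0.180 and 0.929 CPM after exoCDN2, with tumors of 1 arm several-fold apart. T cell markers summed to 19.4 and 32.5 CPM after unloaded EVs and 28.9 and 39.9 CPM after exoCDN2, and 1 of 19 was called, the kinase gene Lck (3.08 and 4.87 to 7.64 and 9.11 CPM, adjusted p = 0.035), which was lost without unloaded EV tumor 1 or either exoCDN2 tumor. Of the 19 markers 14 had negative differences and the list median was -0.63, but it was 0.38 without unloaded EV tumor 2, -1.14 without unloaded EV tumor 1, -1.19 without exoCDN2 tumor 2 and -0.08 without exoCDN2 tumor 1. Tcf7 and Tbx21, transcription factors of memory and of type 1 T cells, were at 0.60 and 0.94 on the log2 scale (adjusted p = 0.165 and 0.397).

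**Figure D3:**
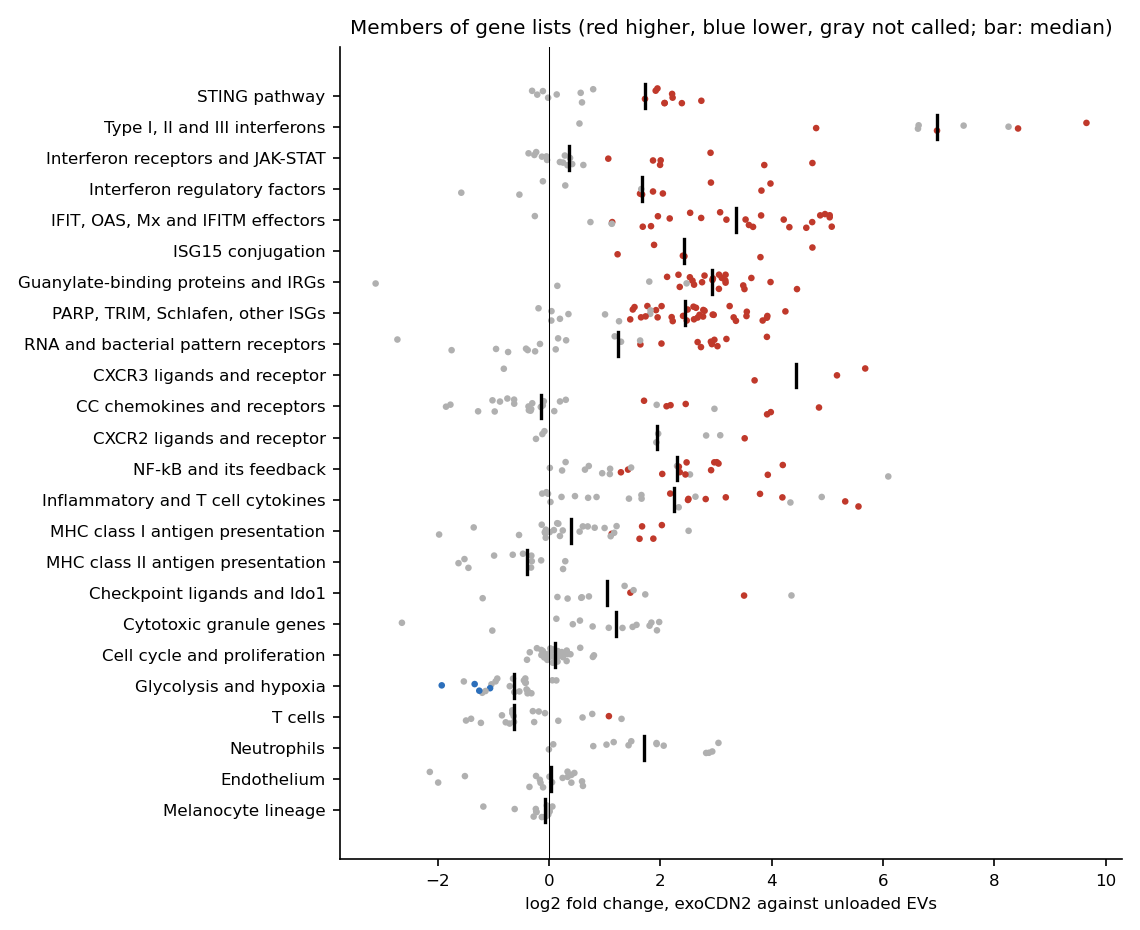
Log2 fold change of exoCDN2 over unloaded EVs for each tested gene of 24 lists, 1 row a list, with called genes coloured and the list median as a bar. The IFIT and OAS, GBP and CXCR3 ligand rows sit to the right of 0, and the glycolysis and hypoxia row sits mostly to its left.

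Several of the lower genes are known targets of the hypoxia factor HIF1. Pdk1, which diverts pyruvate from mitochondria (chr2:71873224-71903858), fell from 125 and 164 to 66.9 and 72.05 CPM (log2 fold change -1.06 ± 0.18, adjusted p = 0.00525). Slc16a3, the lactate exporter MCT4 (chr11:120948480-120960868), fell from 201 and 315 to 96.6 and 108 CPM (log2 fold change -1.33 ± 0.23, adjusted p = 0.00684). Ankrd37 fell from 5.26 and 9.94 to 1.84 and 2.16 CPM and Bnip3, which acts in mitochondrial clearance, from 307 and 478 to 138 and 192 CPM (adjusted p = 0.0154 and 0.0233). These were the 4 lower of 24 glycolysis and hypoxia genes, none of which rose, where 0.425% of all genes tested were lower. The list median was -0.63, against -0.04 over all genes tested. Differences were negative in 22 of the 24. Outside the list, Egln1, the oxygen sensor that marks HIF1 for decay, fell from 146 and 208 to 76.1 and 81.99 CPM, and Ak4, a mitochondrial kinase, from 52.1 and 80.7 to 35.3 and 29.8 CPM. Several further members did not pass: Car9, a carbonic anhydrase, at 179 and 274 CPM after unloaded EVs and 63.4 and 134 CPM after exoCDN2 (adjusted p = 0.0943), Slc2a1, the glucose transporter, at 145 and 229 CPM after unloaded EVs and 88.8 and 81.04 CPM after exoCDN2 (adjusted p = 0.0897), Vegfa at 85.7 and 167 CPM after unloaded EVs and 67.8 and 62.5 CPM after exoCDN2 (adjusted p = 0.0953) and Ldha, lactate dehydrogenase, at a log2 fold change of -0.45 (adjusted p = 0.201).

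The base of that difference was not even across tumors. In each of Pdk1, Slc16a3, Ankrd37, Bnip3, Egln1 and Ak4 unloaded EV tumor 2 was the highest of the 4, and without it, or without exoCDN2 tumor 1, none of the list was called lower and its median was -0.37 and -0.48, against 2 without exoCDN2 tumor 2 and 5 without unloaded EV tumor 1. Egln1 lost its call without any 1 of the 4 tumors, and Ak4 without unloaded EV tumor 2 or either exoCDN2 tumor. PBS tumors lay at 131 and 119 CPM of Pdk1 and 207 and 193 CPM of Slc16a3, near unloaded EV tumor 1 and above both exoCDN2 tumors. The 22 skeletal muscle markers had positive differences in all 22, with no call in the full fit and 13 without unloaded EV tumor 1, and their part in the result was not tested.

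**Figure D4:**
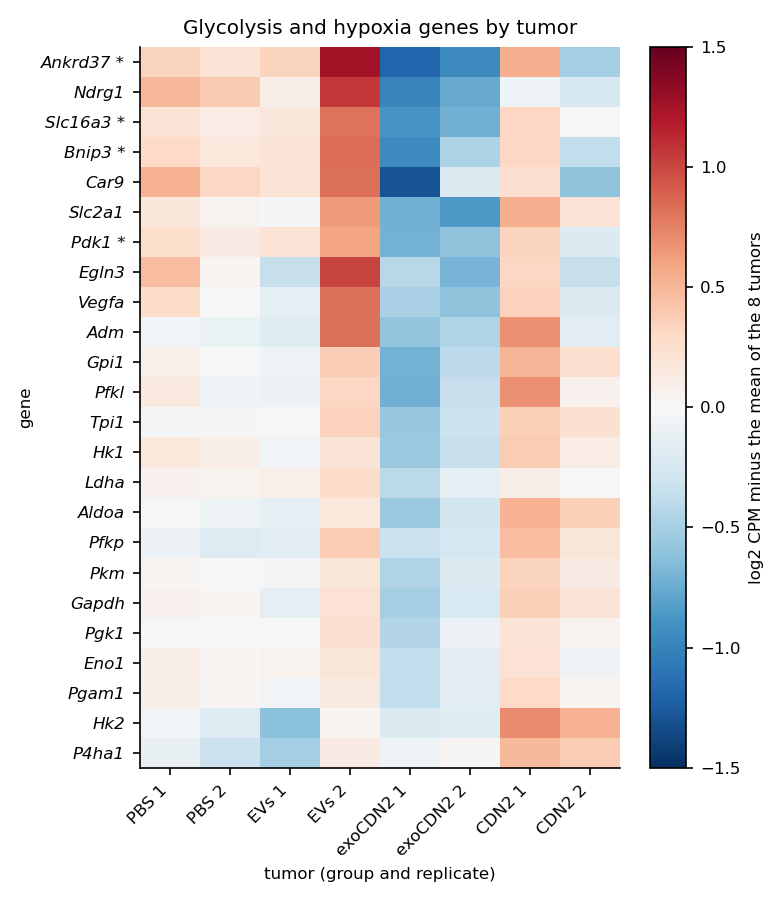
Heat map of 24 glycolysis and hypoxia genes (rows) in 8 tumors given PBS, unloaded EVs, exoCDN2 or 20 µg of CDN2 (columns), coloured by log2 CPM minus the gene's mean over the 8. The 2 exoCDN2 columns are blue in most rows, unloaded EV tumor 2 is red in most, and the asterisks mark the 4 genes called lower.

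Other lower genes came from several families. Pou3f2, a transcription factor of the neural crest lineage and of melanoma cells, fell from 1.31 and 1.54 to 0.180 and 0.0929 CPM (log2 fold change -3.34 ± 0.53, adjusted p = 0.00385), and lost its call without exoCDN2 tumor 2. Heyl, a transcriptional repressor, fell from 0.851 and 1.14 to 0.0800 and 0.209 CPM (adjusted p = 0.0101), Nrarp from 4.45 and 4.52 to 0.640 and 0.976 CPM (adjusted p = 0.0308) and Lfng from 1.75 and 5.42 to 0.860 and 0.929 CPM (adjusted p = 0.0485). Mbp, myelin basic protein, fell from 135 and 95.9 to 47.8 and 41.1 CPM, and Gpt, alanine aminotransferase, from 14.3 and 17.97 to 7.24 and 5.78 CPM. Fscn1, the actin-bundling protein of mature dendritic cells that is also made by tumor cells, fell from 44.7 and 56.2 to 25.4 and 20.4 CPM (log2 fold change -1.14 ± 0.16, adjusted p = 0.00135), while Ccr7 of the same marker list rose. Pcdhgc4, a protocadherin, went from 11.2 and 22.7 to 0.160 and 2.04 CPM, where exoCDN2 tumor 1 was near 0. Without unloaded EV tumor 2 Fscn1, Heyl, Gpt, Nrarp, Lfng and Pcdhgc4 were no longer called. Mbp was not called without exoCDN2 tumor 2 or unloaded EV tumor 1. Heyl and the pair of Nrarp and Lfng were also lost without exoCDN2 tumor 1, and Fscn1, Gpt, Nrarp and Lfng without exoCDN2 tumor 2, and Nrarp without unloaded EV tumor 1.

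Some higher genes outside the lists were named after their values were seen. Tnfsf15, a TNF family ligand of endothelium and myeloid cells, had 3 and 1 counts after unloaded EVs and 309 and 259 after exoCDN2, a ratio of 130 (exact binomial 95% interval 50.7 to 480, counting error only). Bmp10, a ligand of the bone morphogenetic protein family, had no count after unloaded EVs and 0.620 and 1.09 CPM after exoCDN2, at least 12.1-fold higher, and Bmp2 rose from 0.480 and 0.252 to 4.84 and 7.29 CPM. Cd69, an early marker of lymphocyte activation, rose from 2.12 and 0.454 to 20.2 and 17.8 CPM, and Acod1, which makes itaconate in activated macrophages, from 13.5 and 2.45 to 141 and 97.5 CPM. Has2, a hyaluronan synthase, rose by 3.65 on the log2 scale, Ubd, a ubiquitin-like modifier, by 4.04, Il12rb2, the interleukin 12 receptor chain, by 3.37, and Cd47, the signal that restrains phagocytes, by 1.28. Cd69, Has2 and Bmp10 lost their calls without unloaded EV tumor 2, Acod1 without that tumor or exoCDN2 tumor 1, and Ubd and Il12rb2 without either unloaded EV tumor or exoCDN2 tumor 2.

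Few markers of the cell types in the tumor were called in the main fit, where 2.52% of all genes tested were higher and 0.425% lower. Beside those shares, counts of 0 or 1 in lists this short say little about the cell types. DESeq2 called 2 macrophage, 3 endothelial, 2 keratinocyte and 1 melanocyte marker lower, and none of these lists' markers higher. The counts below are of the main fit. Over 20 macrophage and monocyte markers none was called and the median was -0.23, which turned to 0.38 without unloaded EV tumor 2. No NK cell, fibroblast, melanocyte, adipocyte or keratinocyte marker was called, nor was any of 18 endothelial markers, whose median was 0.03 and ranged from -0.08 to 0.21 with 1 tumor left out. Of 7 B cell markers 1 rose, the transcription factor gene Pax5, by 2.19 on the log2 scale, and it lost its call without any 1 of the 4 tumors. Of 15 dendritic cell markers 1 rose and 1 fell, as given above.

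Free CDN2 at 20 µg, set against PBS, shares no tumor with the comparison above, and the 2 changes were tested against each other. Free CDN2 changed 532 genes (3.14%), 382 higher (2.26%) and 150 lower (0.886%). Of these 281 were higher in both comparisons, or 65.8% of those higher with exoCDN2 and 73.6% of those higher with free CDN2, and 12 were lower in both, or 16.7% and 8.0%. No gene was called in opposite directions. Of the 427 genes higher with exoCDN2, 423 had a positive difference under free CDN2, with a median of 1.84, and of the 72 lower genes 54 had a negative one, with a median of -0.56. Usp18 lay at 306 and 319.8 CPM after free CDN2 and Cxcl9 at 140.3 and 206 CPM, and Ifnb1 at 14 and 54.9 CPM with tumors 1 and 2 on either side of the exoCDN2 tumors. The amounts differ, 0.1 µg and 20 µg, and so do the controls, so the sizes stand side by side without a ranking of the 2 forms.

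In a direct test of the difference of the 2 changes, no gene passed in edgeR over the 8 groups (0%, smallest adjusted p 0.133, 1556 genes at an unadjusted p under 0.05), while DESeq2 called 106. Endothelial markers had unlike values under the 2 forms. Pecam1, the junction protein CD31, lay at 30.8 and 25.2 CPM after unloaded EVs, 35.2 and 35.6 CPM after exoCDN2, 29.5 and 32.8 CPM after PBS and 11.4 and 13.7 CPM after free CDN2, a difference of changes of 1.65 on the log2 scale (95% interval 0.87 to 2.42, adjusted p = 0.229). Cdh5, VE-cadherin, had a difference of 1.92 (1.13 to 2.70, adjusted p = 0.18), and Adgrf5, a receptor of vascular endothelium, one of 2.31 (1.64 to 2.99, adjusted p = 0.133). Over the 18 endothelial markers free CDN2 had a median of -1.32 with 9 lower in the main fit, against 0.03 and none for exoCDN2. DESeq2 called 12 lower with free CDN2 and 3 lower with exoCDN2. Of the 18 differences of changes 0 were called in the main fit, 7 in DESeq2 and 9 in edgeR on the groups given 1 dose. For red cell genes the difference of changes had the opposite sign to that of the endothelial markers, while the median was positive under both forms. After free CDN2 5 of 7 were higher (median 3.64), and after exoCDN2 none of 7 (median 0.65). The exoCDN2 median was 0.14 without unloaded EV tumor 2 and 1.6 without unloaded EV tumor 1. The whole red cell list summed to 357 and 131 CPM in the unloaded EV and 324 and 467 CPM in the exoCDN2 tumors. It summed to 192 and 144 CPM in the PBS and 1283 and 2921 CPM in the free CDN2 tumors. The difference of changes of the red cell genes had a median of -3.01, with none called in the main fit and 5 in DESeq2. Slc16a3 lay at 207 and 193 CPM after PBS and 223 and 179 CPM after free CDN2, and over the 24 glycolysis and hypoxia genes free CDN2 had a median of 0.13 against -0.63 for exoCDN2. Among single genes with the lowest p on that side, Pou3f2 differed by -4.32 and Gpt by -1.93 on the log2 scale (adjusted p = 0.18 and 0.18).

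**Figure D5:**
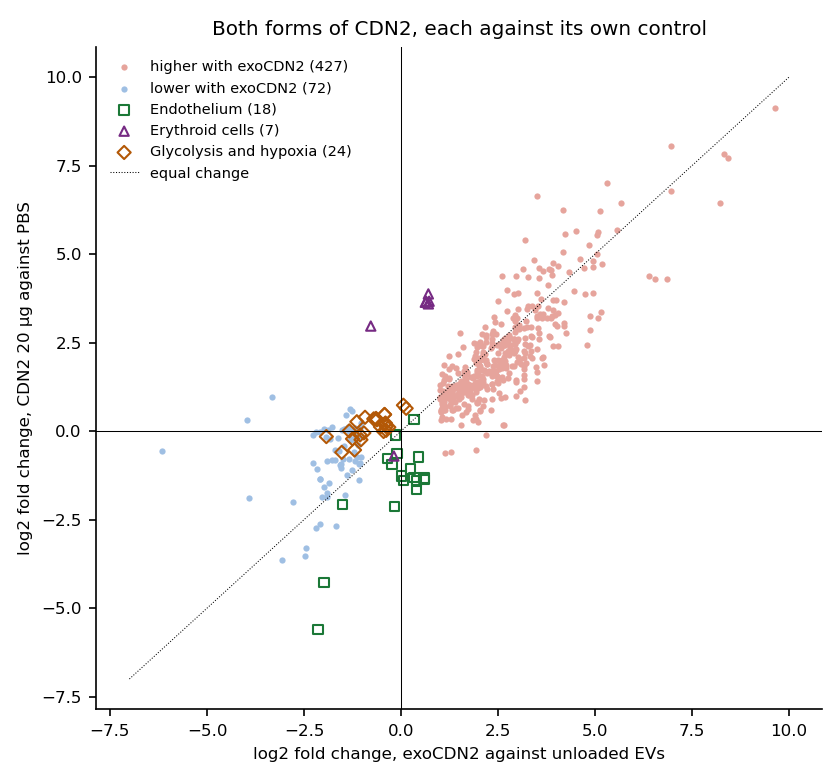
Log2 fold change of exoCDN2 over unloaded EVs (horizontal axis) against that of 20 µg of free CDN2 over PBS (vertical axis), for the 427 higher and 72 lower genes of the first comparison, with 18 endothelial, 7 red cell and 24 glycolysis and hypoxia genes as open symbols and a dotted line where the 2 changes are equal. Most endothelial points lie below the line and most red cell points above it, and no single gene's distance from it passed the test over the 8 groups.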

How the data were processed

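RNA from whole B16F10 tumors was sequenced on an Illumina instrument, and the authors aligned reads to GRCm38 with the OSA aligner and estimated expression per gene with RSEM and an Ensembl gene model. The deposited values are RSEM expected counts for 50600 genes, not normalized. They were rounded to whole numbers here, because the authors' estimated counts need not be whole. Groups came from the labels. The comparison, gene lists and tests were chosen with earlier results of these data known.

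The main fit was edgeR's quasi-likelihood test (edgeR 4.0.16, R 4.3.3) over 16 tumors in 8 groups of 2, which share 1 estimate of the spread, with TMM scaling and a filter on low counts (filterByExpr, minimum count 10 and total 15) that left 16927 genes. Adjusted p is by Benjamini and Hochberg's method across these genes. Of the genes, 27.9% differed over 2-fold between the 2 tumors given 2 doses of 20 µg of free CDN2. The share was 10.7% in the unloaded EV arm and 6.19% in the exoCDN2 arm. An exact permutation test of 2 against 2 tumors cannot go below p = 0.333, so none was used for single genes. The other 2 tumors, given 2 doses of free CDN2 in an amount that the labels do not state, entered no test. Standard errors are of the log2 fold change. Intervals of a difference of changes come from the fit and include the spread between tumors, while the binomial interval and floors of counts cover counting error only. The scripts were tested on simulated counts. Genes were named by rule (the 12 higher and 12 lower genes with the smallest p, up to 3 each way from each list, a fixed set, and 5 each way from the test of the difference), and others were added after their values were seen. Gene coordinates are from the GRCm38 annotation. Alternatives were DESeq2 1.42.0, other scaling, no filter, fewer groups, a replicate block and each tumor left out. Some withheld items are not reported here.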

Additional observations from a re-analysis of the deposited data

How the results depend on the processing

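With 2 tumors an arm, each tumor carried weight. A sign that stays the same adds little, since the genes were called on these same tumors. Of the 427 higher genes 172 were called with each of the 4 tumors left out in turn, 373 under every alternative that kept all 4, and 427 had 1 sign throughout. Of the 72 lower genes none was called under all alternatives, 39 were called under those that kept the 4 tumors, and 72 had 1 sign throughout. When a tumor was left out, the lone tumor of its arm was assumed to vary like the other groups, and the changed genes numbered 223 to 364, the higher 216 to 288 and the lower 7 to 76. The lowest counts came without unloaded EV tumor 2. Without the filter on low counts 1101 genes changed (823 higher, 278 lower), and with only the groups given 1 dose 807 did (655 higher, 152 lower). Lower genes numbered 137 in DESeq2, 136 in DESeq2 on only the groups compared, and 116 with no limit on the ratio. The direct test of the difference between the 2 changes called 106 genes in DESeq2, 316 without the filter, 5 in edgeR and 318 in DESeq2 on only the groups compared, 237 on the groups given 1 dose, and 0 to 5 with a tumor left out. Alternatives for 3 further comparisons were chosen after seeing the data: unloaded EVs against PBS gave 36 in DESeq2 and 227 without the filter, exoCDN2 against PBS 708 and 1166, and CDN2 20 µg against PBS 1076 without the filter. The cause of these differences was not tested. With only 2 pairs the tumor numbers were not shown to pair the samples (same-number correlation of deviations 0.234 for exoCDN2 and unloaded EVs, 0.118 for CDN2 and PBS), and with the replicate block 455 genes changed (402 higher, 53 lower).

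Among 161 named genes 10 changed sign under an alternative, none of them called. Dct came to 0.017 in DESeq2 and with RLE factors, 0.0076 in edgeR and 0.014 in DESeq2 on only the groups compared, and 0.0085 with the groups given 1 dose. With a tumor left out Dct ranged from -0.046 to 0.028, Tyrp1 from -0.086 to 0.10, Cd8a from -2.36 to 0.061, Cd8b1 from -2.63 to 0.62, Prf1 from -0.45 to 1.07, H2-K1 from -0.56 to 0.72, B2m from -0.23 to 0.67, Psmb9 from -0.70 to 1.49, H2-Ab1 from -1.14 to 0.83 and Mest from -0.21 to 0.39 on the log2 scale.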
